A study of Mus musculus with 12 samples.

Results

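Csf1r, Adgre1, Apoe, Trem2, Cd14, Cx3cr1, Itgam and Ly6c1 are genes commonly used to follow monocytes and the interstitial macrophages that monocytes give rise to in the lung. They were taken by exact name from the deposited NanoString tables, where they are 8 of 734 endogenous genes, and all 8 were among the 665 genes that passed the filter on low counts. Whole lung RNA, from the post-caudal lobe, was counted in 12 libraries with barcoded probes and no amplification. B6_PBS (n = 2) and B6_DRA (n = 5) are littermate wild type mice given PBS or DRA allergens into the nose, and KO_DRA (n = 5) are Chil4-deficient littermates given DRA allergens. All groups were treated 2 times per week for 8 weeks. The labels describe the deficient mice both as KD and as KO, do not expand DRA, and state no age, sex or targeting method. Deficient mice given PBS were not analysed here, so the KO_DRA libraries have no untreated group of their own genotype. Whether each library is 1 mouse is not stated in the labels, so p-values measure the spread between libraries.

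Monocytes reach the lung from the blood and turn into macrophages in the tissue between the airspaces, and inflammation draws in more of them. The receptor for the growth factor CSF1 keeps these cells alive, CD14 and the CD11b integrin let them bind microbial products and complement-coated particles, and TREM2 and apolipoprotein E belong to a programme for handling lipids and dead cells. CX3CR1 and Ly6C separate patrolling from classical monocytes in mice. None of the 8 genes is restricted to these cells: CD11b is also carried by neutrophils and eosinophils, and Ly6c1 is strongly made by lung capillary endothelium. In RNA from a whole organ, fewer cells of a type and less RNA per cell cannot be told apart.

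Library totals ran from 320290 to 673201 counts, and 2.79% to 43.6% of each total came from Chil3, Chil4 and Retnla together. Levels are therefore given as CPM, counts scaled to a common library size, with edgeR's TMM factors, which damp the weight of a few abundant genes. Chil4 itself, the targeted gene, did not separate the labelled genotypes. It was at 9893 and 8353 CPM in B6_PBS, at 30077 to 200206 CPM in B6_DRA, and at 255026, 15404, 11015, 57356 and 32588 CPM in the libraries labelled KO_DRA 8 to 12. The library labelled KO_DRA 8 thus held the most Chil4 signal of all 12. Whether the probe lies in the altered part of the gene, or also binds the closely related Chil3, is not given in the sources used here. Every comparison with KO_DRA is for that reason given with and without this library, and its directions rest on the labels. No pair of libraries within a group agreed within sampling noise.

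DRA treatment of wild type mice came with higher levels of most of the 8 genes. Trem2 rose most, by 11.6-fold, followed by Cd14 (2.64-fold), Itgam (2.36-fold), Adgre1 (2.12-fold), Apoe (1.47-fold) and Csf1r (1.22-fold). Ly6c1 fell to 0.716 of its B6_PBS level, and Cx3cr1 gave no call. These calls are edgeR quasi-likelihood tests adjusted by Benjamini-Hochberg over all 665 genes at a threshold of 0.05. They make 6 of 8 members higher, where 24.1% of all genes were called higher, and 1 of 8 lower, where 17.7% were. The B6_DRA and B6_PBS libraries did not overlap for 6 members on the higher side, against 31.6% of all genes, and for 1 on the lower side, against 28.1%. The median log2 fold change was 0.82 over the members and 0.01 over all genes. With 2 control libraries these calls are fragile: leaving out B6_PBS 1 or B6_PBS 2 left 0 of the 8 called, although every one of the 8 kept its direction. Leaving out B6_DRA 3 left 4 called (Adgre1, Trem2, Itgam and Ly6c1).

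**Figure D1:**
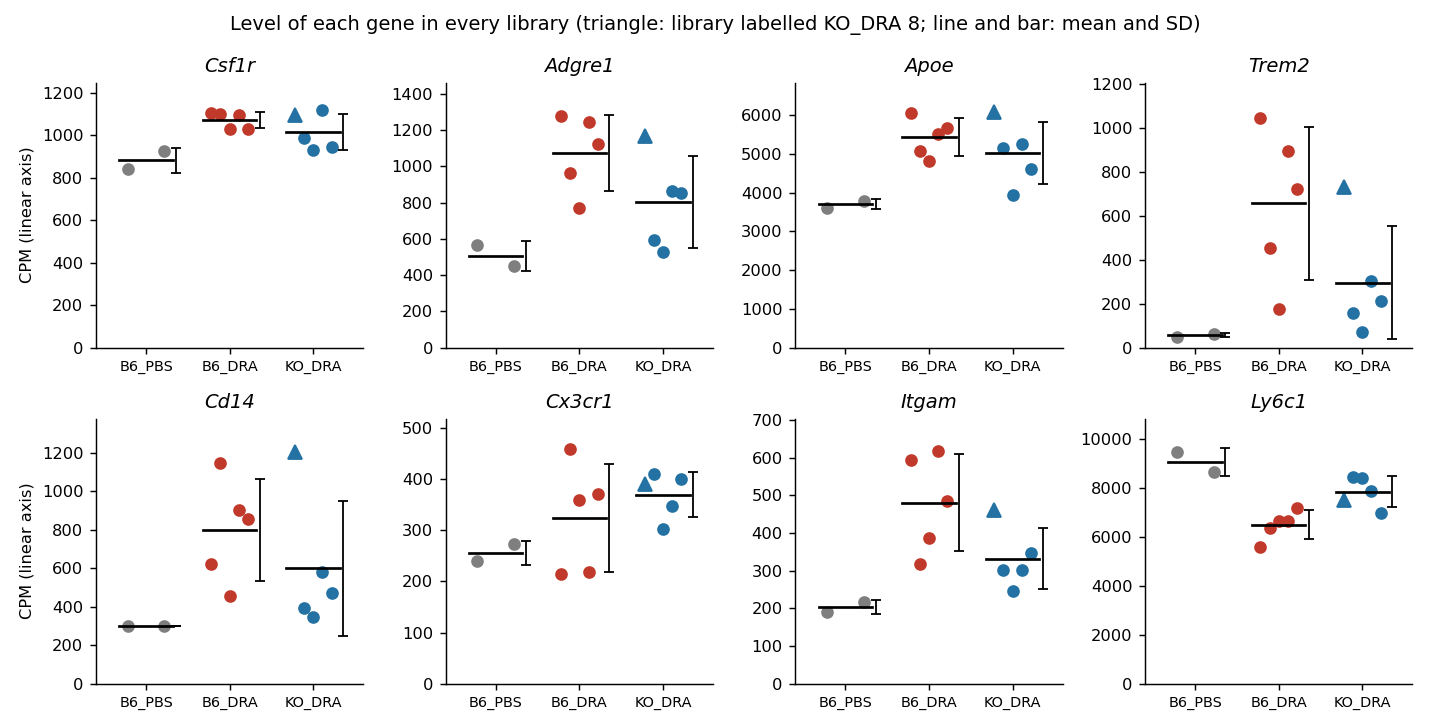
CPM of each gene in every library on linear axes from 0, with points for libraries, a line for the group mean and a bar for the SD (B6_PBS n = 2, B6_DRA and KO_DRA n = 5). The triangle is the library labelled KO_DRA 8, which lies at 732 CPM for Trem2 while the other KO_DRA libraries lie between 71.8 and 304 CPM.

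Trem2 encodes a receptor for lipids and cell debris on macrophages, and it had the lowest single count of the 8, 26 in B6_PBS 1, and in both DRA groups the widest spread of log2 CPM (SD 1.03 in B6_DRA and 1.20 in KO_DRA, n = 5 each). Its promoter is shown with those of Itgam and Ly6c1 because these 3 genes cover the strongest rise, a moderate rise and the fall among the members with a RefSeq entry. Each is the 250 bases before an annotated start in GRCm38.p6, read 5′ to 3′ on the gene's strand. Capitals mark GAGGAA or its reverse complement TTCCTC, a core often bound by PU.1, the transcription factor that directs the myeloid lineage.
Trem2, chr17:48346151-48346400, plus strand: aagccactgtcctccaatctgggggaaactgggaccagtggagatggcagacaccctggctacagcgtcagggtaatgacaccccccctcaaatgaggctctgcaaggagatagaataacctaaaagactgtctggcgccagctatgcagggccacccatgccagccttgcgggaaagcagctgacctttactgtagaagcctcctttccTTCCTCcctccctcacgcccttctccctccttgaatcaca
Itgam, chr7:128062390-128062639, plus strand: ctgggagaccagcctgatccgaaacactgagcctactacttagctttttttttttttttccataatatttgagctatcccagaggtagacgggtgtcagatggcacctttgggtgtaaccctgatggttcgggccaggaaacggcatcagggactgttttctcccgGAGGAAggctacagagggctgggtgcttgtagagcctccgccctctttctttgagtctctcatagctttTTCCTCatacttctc
Ly6c1, chr15:75048838-75049087, minus strand, the first of 2 starts: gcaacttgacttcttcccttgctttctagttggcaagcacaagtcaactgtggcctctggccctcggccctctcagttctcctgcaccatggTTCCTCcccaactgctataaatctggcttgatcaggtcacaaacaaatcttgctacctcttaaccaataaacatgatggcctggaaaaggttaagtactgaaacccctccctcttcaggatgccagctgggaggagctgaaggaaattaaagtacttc
The core occurred once before Trem2, at positions -40 to -35 from the start, and once before Ly6c1, at -158 to -153. The Itgam promoter held 2 copies, at -84 to -79 and at -15 to -10. Of 27025 RefSeq promoters of the same length, 23.13% hold this core on either strand. Apoe and Cx3cr1, the other matched members, held 1 and 0 copies, and Csf1r, Adgre1 and Cd14 have no entry in the table. The C/EBP motif TTGCNNAA, held by 9.554% of promoters, and the STAT6 motif TTCNNNNGAA, held by 5.865%, occurred in none of the 5 matched members' windows on either strand. The core was thus present before a gene that rose and before the gene that fell, and a match of these letters is a description and not a site of binding.

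Trem2 lay at 50.2 and 62.6 CPM in B6_PBS, from 26 and 33 counts. In B6_DRA 3 to 7 it lay at 1048, 452, 176, 895 and 723 CPM, and in KO_DRA 8 to 12 at 732, 159, 71.8, 304 and 211 CPM. All B6_DRA libraries exceeded both B6_PBS libraries, but B6_DRA 5 was well below the other B6_DRA libraries. The counts in B6_PBS stood above the background of their libraries (6.41 and 6.57 counts, taken 2 SD above the mean negative control). Exact Poisson 95% intervals, which cover counting error alone, were 22.7 to 46.3 counts for B6_PBS 2, the higher of its group, and 59.9 to 95.1 counts for B6_DRA 5, the lowest of its group. On the CPM scale these are 43.1 to 87.9 and 138 to 220 CPM, which do not overlap. Against B6_PBS, B6_DRA had a log2 fold change of 3.54 (SE 0.955, 95% interval 1.45 to 5.62, adjusted p = 0.0212). Within B6_DRA the highest library was 5.97 times the lowest, and within KO_DRA 10.2 times.

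Between KO_DRA and B6_DRA, Trem2 had a log2 fold change of -1.16 (SE 0.570, 95% interval -2.41 to 0.09, adjusted p = 0.383), and the groups overlapped. Leaving the library labelled KO_DRA 8 out gave -1.83 (SE 0.496, adjusted p = 0.0403). The interval from all 5 libraries is wide and reaches past 0, so the size of a difference is poorly fixed at this spread.

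Tyrobp, the adaptor that carries the TREM2 signal, rose as well. It was at 2699 ± 247 CPM in B6_PBS (SD, n = 2) and at 6823 ± 1814 CPM in B6_DRA (SD, n = 5), up by 1.34 on the log2 scale (SE 0.380, adjusted p = 0.0253). Of the 10 measured genes listed as TREM2 partners or genes of lipid-associated macrophages, 3 rose (Tyrobp, the kinase Syk by 0.96 and the lysosomal protein Cd68 by 2.04 on the log2 scale), and 1, the fatty acid transporter Cd36, fell by 0.46. These shares lie near or under the 24.1% of all genes called higher and the 17.7% called lower. The lysosomal protease Ctsd, at a log2 fold change of 1.99, missed the threshold (adjusted p = 0.0557). The list's median was 1.06 against 0.01 over all genes. Between KO_DRA and B6_DRA 0 of the 10 were called. Without KO_DRA 8, 5 of the 10 were called lower, where 13.6% of all genes were, and 0 higher: Tyrobp at a log2 fold change of -0.80, Cd68 at -1.36, the proteases Ctsd and Ctsl at -1.55 and -1.04, and galectin-3, Lgals3, at -1.41.

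Apoe encodes a lipid carrier that macrophages secrete and that can bind TREM2. It lay at 3613 and 3799 CPM in B6_PBS, at 6059, 5079.9, 4823, 5528 and 5668 CPM in B6_DRA 3 to 7, and at 6095, 5151, 3945, 5270.2 and 4622 CPM in KO_DRA 8 to 12. Both DRA groups stood above both B6_PBS libraries, in a narrow band compared with Trem2. The change in B6_DRA against B6_PBS was 0.55 on the log2 scale (SE 0.160, adjusted p = 0.0267). Without B6_DRA 3 it was 0.51 with an adjusted p of 0.0508. KO_DRA and B6_DRA overlapped, with a log2 fold change of -0.11 (95% interval -0.37 to 0.14), or -0.19 (adjusted p = 0.208) without KO_DRA 8.

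Cd14 encodes the co-receptor that hands bacterial lipopolysaccharide to TLR4. It lay at 301 CPM in both B6_PBS libraries, at 621, 1144, 457, 903 and 853 CPM in B6_DRA 3 to 7, and at 1204, 395, 345, 578 and 473 CPM in KO_DRA 8 to 12. Every DRA library was above B6_PBS, and the highest of all 12 was the library labelled KO_DRA 8. Against B6_PBS, the log2 fold change of B6_DRA was 1.40 (SE 0.487, adjusted p = 0.0394). That call was lost when any of B6_DRA 3, 4, 6 or 7 was left out, with adjusted p values of 0.0550, 0.0662, 0.0685 and 0.0661. KO_DRA against B6_DRA gave a log2 fold change of -0.41 (95% interval -1.15 to 0.33, adjusted p = 0.526), and without KO_DRA 8 it was -0.83 (SE 0.243, adjusted p = 0.0426).

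Tlr4, the signalling receptor behind CD14, lay at 502 ± 16.3 CPM (SD, n = 2) in B6_PBS and at 649.5 ± 97.6 CPM (SD, n = 5) in B6_DRA, without passing the test (log2 fold change 0.37, SE 0.187, adjusted p = 0.123). Of 7 measured genes of CD14 and TLR4 signalling, 2 rose: the TLR4 relative Cd180 by 0.73 and the NF-kappaB brake Tnfaip3 by 0.74 on the log2 scale. The ubiquitin ligase Traf6 fell by 0.45 (adjusted p = 0.0338). These shares lie near the 24.1% of all genes called higher and the 17.7% called lower. The adaptor Myd88 and the subunit Nfkb1 had log2 fold changes of 0.001 and 0.01. The list's median was 0.01, as was that of all genes. Between KO_DRA and B6_DRA 0 of the 7 were called, with or without KO_DRA 8.

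Csf1r, the receptor tyrosine kinase on which monocytes and macrophages depend, moved little. It lay at 842 and 925 CPM in B6_PBS, at 1107, 1101, 1033, 1097 and 1031 CPM in B6_DRA 3 to 7, and at 1094, 987, 932, 1121 and 946 CPM in KO_DRA 8 to 12. All 10 DRA libraries were above both B6_PBS libraries, and the B6_DRA libraries spanned a factor of 1.07. The change in B6_DRA against B6_PBS was 0.28 on the log2 scale (SE 0.101, 95% interval 0.06 to 0.50, adjusted p = 0.0430). This call is at the edge: it was lost without Chil3, Chil4 and Retnla in the library totals, without the count filter, with the 2 groups fitted alone, and without any of B6_DRA 3, 4, 6 or 7. Scaled to library size alone the value was -0.36, but there the median over all genes also moved, to -0.63. KO_DRA against B6_DRA gave -0.08 (95% interval -0.24 to 0.08), and -0.11 without KO_DRA 8.

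Csf1, which encodes the growth factor for this receptor, was at 550.2 ± 0.588 CPM (SD, n = 2) in B6_PBS and at 539.9 ± 40.6 CPM (SD, n = 5) in B6_DRA, with a change of -0.03 on the log2 scale (SE 0.119, adjusted p = 0.871). Irf8, Klf4 and Nr4a1, which shape monocyte development, had log2 fold changes of 0.29, -0.61 and -0.70 and did not pass (adjusted p = 0.198, 0.0687 and 0.157).

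Adgre1 encodes F4/80, the surface protein most used to recognise mouse macrophages and also present on eosinophils. It lay at 566 and 449 CPM in B6_PBS, at 1278, 964, 772, 1246 and 1123 CPM in B6_DRA 3 to 7, and at 1169.7, 594, 529.8, 866 and 852 CPM in KO_DRA 8 to 12. The B6_DRA libraries were all above B6_PBS, while KO_DRA 10 fell between the B6_PBS libraries. The log2 fold change in B6_DRA against B6_PBS was 1.08 (SE 0.299, 95% interval 0.43 to 1.74, adjusted p = 0.0229). Against B6_DRA, KO_DRA stood at -0.43 (95% interval -0.89 to 0.04, adjusted p = 0.383), and -0.60 (SE 0.188, adjusted p = 0.0493) without KO_DRA 8.

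Itgam encodes the CD11b chain of complement receptor 3. It lay at 189 and 216 CPM in B6_PBS, at 593, 318, 386, 618 and 485 CPM in B6_DRA 3 to 7, and at 461, 302, 245, 302 and 347 CPM in KO_DRA 8 to 12. Both DRA groups were above B6_PBS in every library, and 3 of the 5 KO_DRA libraries were below the lowest B6_DRA library. The change in B6_DRA against B6_PBS was 1.24 on the log2 scale (SE 0.294, 95% interval 0.60 to 1.88, adjusted p = 0.0171), the smallest adjusted p of the 8. Against B6_DRA, KO_DRA stood at -0.53 (95% interval -0.99 to -0.08), with an unadjusted p of 0.0247 and an adjusted p of 0.328. Without KO_DRA 8 it was -0.68 (SE 0.196, adjusted p = 0.0421).

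Itgb2, the CD18 chain that pairs with CD11b, rose in B6_DRA. Its level was 1025 ± 6.94 CPM in B6_PBS (SD, n = 2) and 3620.1 ± 1250.1 CPM in B6_DRA (SD, n = 5), up by 1.82 on the log2 scale (SE 0.580, adjusted p = 0.0323). Complement C3, whose fragment is bound by this integrin, rose by 1.21 (adjusted p = 0.0171), and its adhesion ligand Icam1 fell by 0.32 (adjusted p = 0.0485). Together with Cx3cl1, described with its receptor, these make 2 of 4 measured partners called higher and 1 lower. Over all genes 24.1% were called higher and 17.7% lower. Of the 4, 0 were called in KO_DRA against B6_DRA. Without KO_DRA 8, Itgb2 was lower by a log2 fold change of -1.14 (adjusted p = 0.0377) and C3 by -0.62 (adjusted p = 0.0421). These are 2 of the 4, where 13.6% of all genes were lower.

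Cx3cr1, the fractalkine receptor of patrolling monocytes and of some interstitial macrophages, did not separate B6_DRA from B6_PBS. It lay at 239.6 and 273 CPM in B6_PBS, at 214, 459.5, 360.4, 219 and 371 CPM in B6_DRA 3 to 7, and at 389.9, 410.3, 303, 347 and 401 CPM in KO_DRA 8 to 12. B6_DRA 3 and B6_DRA 6, the libraries with the most Trem2, were below both B6_PBS libraries, and the other 3 were above. The log2 fold change in B6_DRA against B6_PBS was 0.34 (SE 0.274, 95% interval -0.26 to 0.94, adjusted p = 0.316), an interval that allows a fall as well as a rise. All KO_DRA libraries were above B6_PBS, with a log2 fold change of 0.53 (95% interval -0.07 to 1.13, adjusted p = 0.205). KO_DRA against B6_DRA gave 0.19 (95% interval -0.26 to 0.63), or 0.17 without KO_DRA 8. Its ligand Cx3cl1 was at 274 ± 24.7 CPM in B6_PBS (SD, n = 2) and 204 ± 62.5 CPM in B6_DRA (SD, n = 5), a log2 fold change of -0.43 that did not pass (adjusted p = 0.169).

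Ly6c1 was the member that fell. It lay at 9495 and 8667 CPM in B6_PBS, at 5601, 6379.8, 6678, 6643 and 7212 CPM in B6_DRA 3 to 7, and at 7513, 8448, 8432, 7903 and 6967 CPM in KO_DRA 8 to 12. Every DRA library was below both B6_PBS libraries, and 4 of the 5 KO_DRA libraries were above the highest B6_DRA library. The change in B6_DRA against B6_PBS was -0.48 on the log2 scale (SE 0.125, 95% interval -0.76 to -0.21, adjusted p = 0.0203). The KO_DRA libraries stood 0.27 above B6_DRA on the log2 scale (95% interval 0.06 to 0.48), with an unadjusted p of 0.0160 and an adjusted p of 0.321, and without KO_DRA 8 it was 0.29 (adjusted p = 0.0633). Ly6c1 has a near-identical neighbour, Ly6c2, which classical monocytes use, and whether the probe tells them apart is not given in the sources used here.

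Some markers of endothelium were also lower in the DRA libraries. Of 7 measured endothelial markers, 4 were called lower in B6_DRA against B6_PBS and 0 higher, where 17.7% and 24.1% of all genes were. On the log2 scale the angiopoietin receptor Tek fell by 0.998, thrombomodulin Thbd by 1.03, VE-cadherin Cdh5 by 0.94 and the VEGF receptor Flt1 by 0.95. Cd34 (-0.37), P-selectin Selp (0.00) and E-selectin Sele (0.86) did not pass. Their summed level was 18498 to 21282 CPM in B6_PBS, 9185 to 14824 CPM in B6_DRA and 8799 to 17724 CPM in KO_DRA. The part of endothelial RNA in the fall of Ly6c1 was not tested. Set against the mean of the 7 endothelial markers in the same library, Ly6c1 was higher in B6_DRA by 0.04 on the log2 scale (3.27 ± 0.303, SD, n = 5, against 3.23 ± 0.0198, SD, n = 2; exact permutation p = 0.952), so the ratio did not separate the groups. Sele moved against the others, and without both selectins, a choice made after seeing the data, the difference was 0.39 (exact permutation p = 0.286). Between KO_DRA and B6_DRA the same ratio differed by 0.11 (exact permutation p = 0.524). In the library labelled KO_DRA 8, Ly6c1 was at 7513 CPM while Tek was at 1439 CPM, the lowest Tek value of all 12, and this library had the highest ratio, 3.74.

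**Figure D2:**
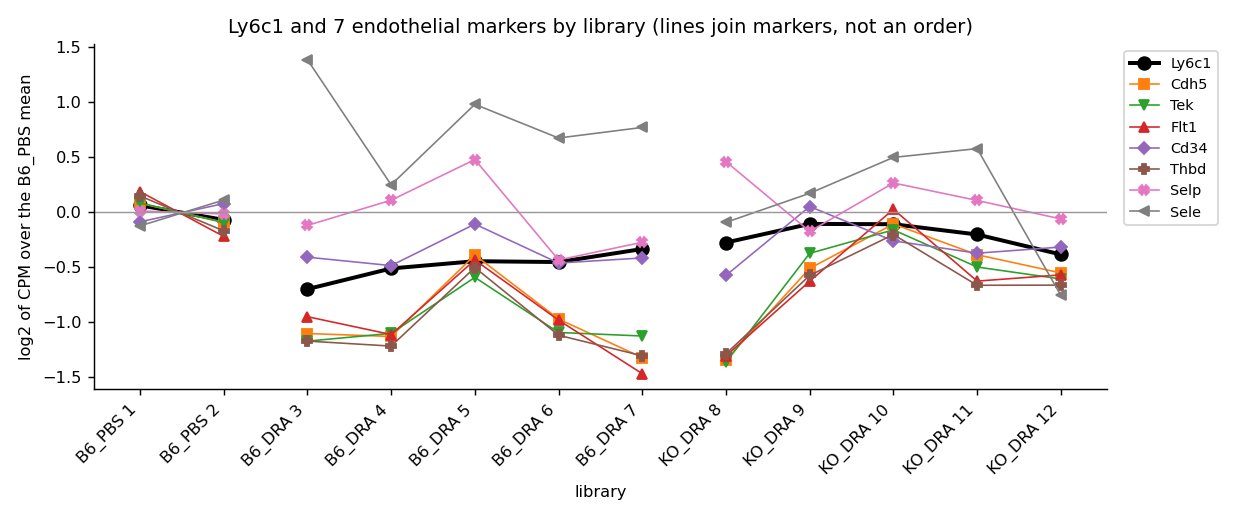
Log2 of the CPM of Ly6c1 (black) and of 7 endothelial markers over the B6_PBS mean, for each library; lines join the libraries of a group and show no order. Cdh5, Tek, Flt1 and Thbd lie below 0 in every B6_DRA library, further down than Ly6c1 in B6_DRA 3, 4, 6 and 7, and Sele lies above 0 in all 5.

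The libraries labelled KO_DRA were set against B6_DRA, a comparison of the labelled genotypes under allergen. With all libraries, 0 of the 8 members were called, as were 0% of the 665 genes, and 0 were called by DESeq2 or limma-voom. At an unadjusted p under 0.05 edgeR gave 2 members (Itgam and Ly6c1), where 12.6% of all genes did. For 0 of the 8 did the groups stand apart, where 0.602% of genes were apart on the higher side and 0.602% on the lower. The estimates were negative for 6 members and positive for Cx3cr1 and Ly6c1, with a median of -0.26 against 0.01 over all genes. Without the library labelled KO_DRA 8, 4 of 8 were called lower (Trem2, Cd14, Itgam and Adgre1), where 13.6% of 664 genes were. None of the 8 was called higher, where 4.52% were. The other 4 kept adjusted p values of 0.0633 (Ly6c1), 0.208 (Apoe), 0.312 (Csf1r) and 0.617 (Cx3cr1). Leaving out any other library of these groups gave 0 members, so this 1 library decides the count.

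The libraries labelled KO_DRA were also set against B6_PBS, a comparison that shares its control libraries with the B6_DRA comparison and in which both genotype and treatment differ. Here 0 of the 8 members were called higher, where 3.01% of genes were. At an unadjusted p under 0.05, 4 members were higher (Trem2, Apoe, Itgam and Adgre1), where 20.9% of genes were. The groups stood apart on the higher side for 6 members, against 23.0% of genes, and on the lower side for Ly6c1, against 16.5% of genes. Adgre1 was the member that overlapped. The log2 fold changes were 2.38 for Trem2 (95% interval 0.38 to 4.38, adjusted p = 0.142), 0.99 for Cd14, 0.71 for Itgam, 0.66 for Adgre1, 0.44 for Apoe, 0.20 for Csf1r and -0.21 for Ly6c1. DESeq2 called 1 member, Trem2 (2.37, adjusted p = 0.0230). Without KO_DRA 10, edgeR called 1, Apoe (0.51, adjusted p = 0.0401), and without KO_DRA 8 it called 0, with Trem2 at 1.71.

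**Figure D3:**
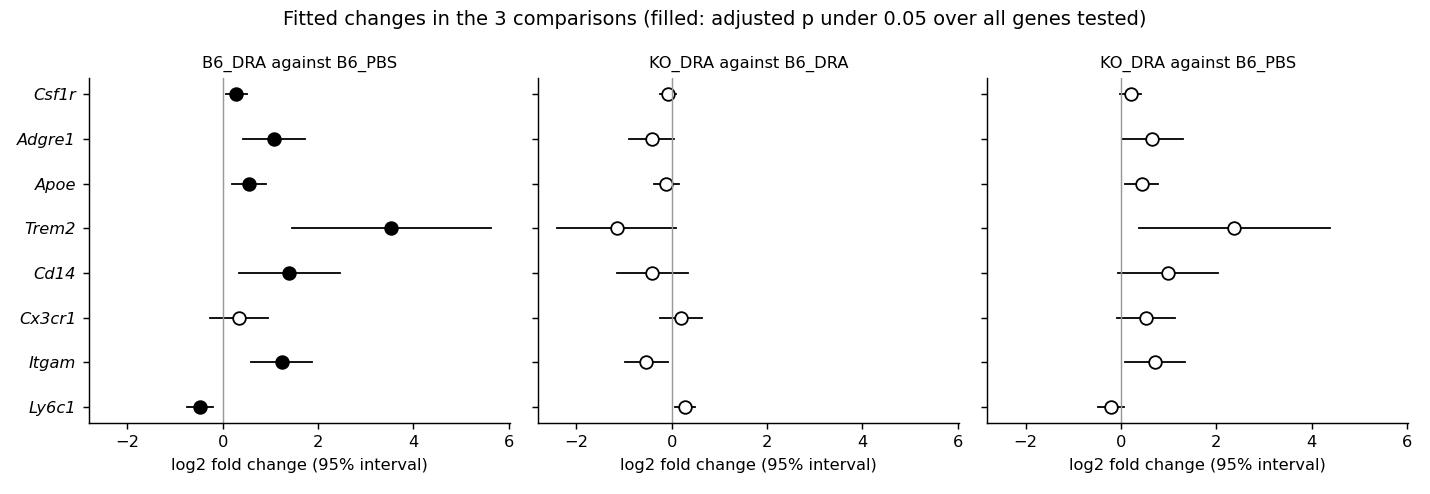
Log2 fold change of each gene (x axis) with its 95% interval in the 3 comparisons; filled points passed an adjusted p of 0.05 over 665 genes. In B6_DRA against B6_PBS 7 points are filled, with Trem2 at 3.54 and Ly6c1 at -0.48, and in both KO_DRA comparisons all points are open.

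Seen library by library, the members other than Ly6c1 did not share 1 order. Ranked from 1 (highest) to 12 for each of these 7 genes, the median rank was 12 and 11 in B6_PBS, 2, 5, 8, 3 and 4 in B6_DRA 3 to 7, and 3, 9, 10, 6 and 7 in KO_DRA 8 to 12. Single ranks spread widely around these medians, from 1 to 12 in B6_DRA 3, 1 to 11 in B6_DRA 6, 2 to 9 in KO_DRA 9 and 1 to 8 in KO_DRA 11. The low ranks of B6_DRA 3 and B6_DRA 6 are those of Cx3cr1, which lay below both B6_PBS libraries there. By median rank B6_DRA 5 was the lowest of its group, below KO_DRA 11 and KO_DRA 12, and the library labelled KO_DRA 8 was level with B6_DRA 6, with ranks from 1 to 5. Chil4 was at 30077 CPM in B6_DRA 5, the lowest of its group, and at 255026 CPM in KO_DRA 8, the highest of its group. What these libraries share beyond their labels was not tested.

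**Figure D4:**
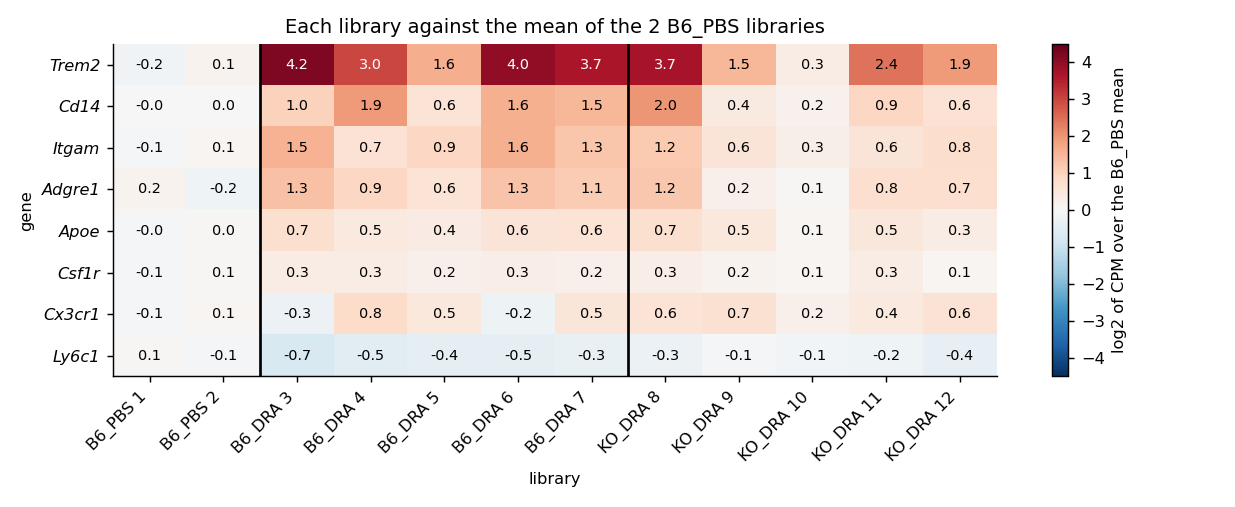
Log2 of each library's CPM over the B6_PBS mean for the 8 genes (rows) in the 12 libraries (columns), red for higher and blue for lower, with vertical lines between groups. Trem2 has the deepest red in B6_DRA 3, 6 and 7 and in KO_DRA 8, Csf1r stays near 0 throughout, and Ly6c1 is blue in every DRA library.

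Because the 8 genes did not move as 1 group, each was also set against Csf1r in the same library, a ratio that does not depend on how libraries are scaled. Over Csf1r, Trem2 was 7.67-fold higher in B6_DRA than in B6_PBS, Cd14 2.05-fold, Itgam 1.87-fold, Adgre1 1.72-fold and Apoe 1.20-fold, and the groups did not overlap for these 5. Ly6c1 over Csf1r was at 0.588 of its B6_PBS ratio, also without overlap. Cx3cr1 over Csf1r was at 0.997 of its B6_PBS ratio, with overlapping groups. Each of the 6 that stood apart had a two-sided exact permutation p of 0.0952, the smallest that 5 against 2 libraries allow, so this design could not reach 0.05. In KO_DRA against B6_DRA, where 0.00794 is the smallest possible p, Ly6c1 over Csf1r was higher by 0.36 on the log2 scale (2.95 ± 0.176 against 2.59 ± 0.175, SD, n = 5 each; exact permutation p = 0.0159). Itgam over Csf1r differed by -0.43 (exact permutation p = 0.0873) and Trem2 over Csf1r by -1.22 (exact permutation p = 0.103). After Benjamini-Hochberg adjustment over the 24 ratio comparisons none passed, the lowest adjusted p being 0.176, and without KO_DRA 8 the lowest was 0.200.

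**Figure D5:**
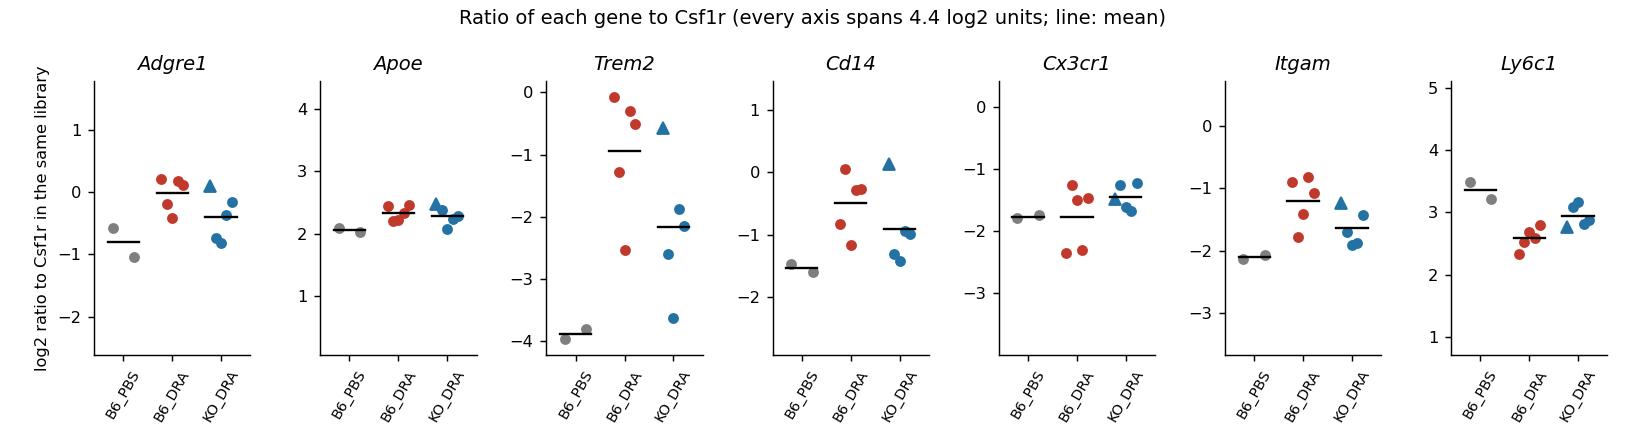
Log2 ratio of each gene to Csf1r in the same library, with every axis spanning the same range, points for libraries, a line for the mean and a triangle for the library labelled KO_DRA 8. Trem2 has a B6_PBS mean of -3.88 and a B6_DRA mean of -0.94, while Cx3cr1 has means of -1.77 in both.

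Among themselves the 8 genes were compared by the root mean square difference of their log2 CPM over the 12 libraries, each centred on its own mean, a measure of likeness on libraries that share group and scaling. Csf1r and Apoe were the closest pair at 0.146, followed by Adgre1 and Itgam at 0.218, and Trem2 and Ly6c1 were the farthest at 1.62. Over the whole panel the nearest genes to Trem2 were the chemokines Ccl6 (0.317) and Ccl9 (0.327), against a median of 1.47 over all genes. Cd14 lay nearest to the mannose receptor Mrc1 (0.171) and to the pore-forming macrophage gene Mpeg1 (0.180). Itgam lay nearest to the adaptor Lat2 (0.151) and the lysosomal mannosidase Man2b1 (0.192). Adgre1 lay nearest to the tight junction gene Cldn1 (0.123) and C3 (0.123), and Apoe to Tnfaip8 (0.098) and the class I gene H2-T23 (0.109). Csf1r lay nearest to the deacetylase Hdac6 (0.096) and H2-Q1 (0.097), Cx3cr1 to the tubulin Tuba4a (0.234) and Pdzk1ip1 (0.239), and Ly6c1 to the autophagy receptor Sqstm1 (0.096) and Rin2 (0.102). Genes that vary little lie close to many others, so these distances are read against each member's own median, which was 0.362 for Csf1r, 0.486 for Cx3cr1 and 0.370 for Ly6c1.

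Other genes of the 2 cell types were counted from fixed lists. Of 8 measured classical monocyte genes, 6 rose in B6_DRA against B6_PBS and 0 fell. They were the monocyte-attracting chemokines Ccl12 (log2 fold change 2.02), Ccl7 (1.72) and Ccl2 (1.53), the receptor Ccr1 (1.70), Chil3 (3.94) and fibronectin Fn1 (0.71). Ccr2, the receptor that brings classical monocytes out of the marrow, was at 788 ± 51.7 CPM (SD, n = 2) and 1050.3 ± 175 CPM (SD, n = 5) and did not pass (log2 fold change 0.41, adjusted p = 0.0891). Of 17 measured interstitial macrophage genes, 10 rose and 0 fell, while 4 had negative estimates without a call. Among those that rose were the complement genes C1qa (1.85), C1qb (1.99) and C1qc (1.67) and the class II gene H2-Eb1 (1.32). The list medians were 1.61 and 1.15 on the log2 scale, against 0.01 over all genes. No gene of either list was called between KO_DRA and B6_DRA. Without KO_DRA 8, 4 of the 8 monocyte genes were lower (Ccl2, Ccl7, Ccl12 and Chil3), and 7 of the 17 interstitial macrophage genes were lower and 0 higher. In KO_DRA against B6_PBS, 8 of the 17 interstitial genes were called higher, and 6 without KO_DRA 8, while 0 of the 8 members were.

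Markers of other cell types that share these genes are read against the 24.1% of all genes called higher and the 17.7% called lower in B6_DRA against B6_PBS. There 5 of 6 measured eosinophil markers were called higher, their summed level going from 342 to 358 CPM in B6_PBS to 1758 to 8464 CPM in B6_DRA, with 485 to 3808 CPM in KO_DRA. The eosinophil granule genes Epx and Prg3 were at background in all 12 libraries. Of 7 dendritic cell markers 5 were higher (694 to 779, 1157 to 1808 and 788 to 1639 CPM in the 3 groups), and of 7 alveolar macrophage markers 2 were, a share near that of all genes: Itgax and Csf2ra (1462 to 1627, 1513 to 3727 and 1452 to 5545 CPM). Of 9 neutrophil markers 0 were called (3850 to 6358, 1554 to 9981 and 4252 to 7371 CPM), and Elane and Camp were at background in all 12 libraries. Markers of NK and T cells (0 of 4) and B cells (0 of 2) gave no call, the epithelial marker Cdh1 (1 of 1) was lower, and 1 of 4 fibroblast and smooth muscle markers, Pdgfra, was lower. The part of eosinophils, dendritic cells and alveolar macrophages in the levels of Adgre1, Itgam, Csf1r, Cx3cr1, Apoe, Cd14 and Trem2 was not tested. Between KO_DRA and B6_DRA 0 markers of these lists were called. Without KO_DRA 8, 4 of 6 eosinophil markers (Rnase2a, Prg2, Alox15 and Ccr3), 2 of 7 alveolar macrophage markers (Itgax and Olr1), 2 of 7 dendritic cell markers (Irf4 and Cd83) and 1 of 9 neutrophil markers (Cxcr1) were lower, where 13.6% of all genes were, so the neutrophil share was below that of all genes. The endothelial markers Tek and Cdh5, 2 of 7, and Cdh1 were higher, where 4.52% of all genes were.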

How the data were processed

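Per the deposited tables, the authors supplied raw whole-number counts for 734 endogenous, 20 housekeeping, 8 negative and 6 positive control probes in 12 libraries. A second deposited table holds a signal made from these counts with a single scaling factor for each library, and it served here as an alternative. R 4.2.0, edgeR and limma appear in the submitters' processing notes, with no roles; how counts were exported or corrected for background is not stated in the labels. Groups came from sample titles, and replicate numbers are never shared between groups.

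The tests used edgeR 4.0.16 (R 4.3.3) on raw counts: controls removed, filterByExpr (minimum count 10, minimum total 15), TMM, 1 mean per group over all 12 libraries (9 residual degrees of freedom), two-sided quasi-likelihood tests, and Benjamini-Hochberg over 665 endogenous genes. SE was the absolute log2 change divided by the root of the F statistic; log2 CPM uses a prior count of 2. Ratios were tested by exact permutation. Alternatives used DESeq2 1.42.0, limma 3.58.1, other scalings and filters, and omitted libraries. The fit was tested on simulated data. Promoters came from RefSeq (GRCm38.p6). Of the panel names, 744 were RefSeq symbols, 9 matched as synonyms and 1 did not match.

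The members and lists were chosen with earlier results of these data known. Named genes were the 8 members, their direct partners and ligands, up to 4 others per pathway list with the smallest p in B6_DRA against B6_PBS, up to 3 abundant markers per cell type, and the 2 nearest genes of each member. Genes named beyond this rule were chosen after their values were seen. Some listed genes are not reported here.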

Additional observations from a re-analysis of the deposited data

Results flagged for a closer look

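The library labelled KO_DRA 8 lay far above the other 4 of its group on the CPM scale for 2 genes. For Cd14 it was at 1204 CPM, and its gap to the next library was 0.729 of the group's range, where Dixon's 95% limit for 5 libraries is 0.710. For Chil4 it was at 255026 CPM, with a gap of 0.810 of the range. These were 2 of 18 groups of 5 libraries tested on CPM (the 8 members and Chil4), and chance alone gives about 1 in 20. On the log2 scale, where ratios were tested too, 0 of 34 groups had such a library. The values of Cd14 with and without this library stand beside each other in the results.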

How the results depend on the processing

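For B6_DRA against B6_PBS, 7 members were called, and 6 or 7 under RLE, DESeq2, limma-voom, housekeeping scaling, the authors' scaled values, negative controls subtracted, Chil3, Chil4 and Retnla left out, no filter, and the 2 groups alone. Scaled to library size alone 2 were called (Trem2 and Ly6c1), and leaving out 1 library gave 0 to 7. For KO_DRA against B6_DRA, 0 were called under every other setting and 0 to 4 with 1 library left out; for KO_DRA against B6_PBS, 1 was called by DESeq2 and 0 to 1 with 1 library left out. Library size alone moved the median log2 fold change of all genes to -0.63 in B6_DRA against B6_PBS, 0.34 in KO_DRA against B6_DRA and -0.29 in KO_DRA against B6_PBS. It turned the sign of Csf1r (-0.36), Apoe (-0.11) and Cx3cr1 (-0.25) in the first, of Csf1r (0.25) and Apoe (0.21) in the second and of Csf1r (-0.12) in the third. With 1 library left out, the log2 ratio of Apoe to Csf1r in KO_DRA against B6_DRA ran from -0.088 to 0.011, that of Cx3cr1 to Csf1r in B6_DRA against B6_PBS from -0.13 to 0.14, and that of Ly6c1 to the endothelial markers in B6_DRA against B6_PBS from -0.051 to 0.138. Without Sele and Selp the last ratio was -0.057 in KO_DRA against B6_DRA. No paired analysis was possible because the groups share no replicate numbers. Depth limits Trem2 in B6_PBS, at 26 and 33 counts.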
